A study of Sus scrofa with 8 samples.

Results

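KIAA0319L, GPR108, TM9SF2, ATP2C1 and RNF121 are host genes that adeno-associated virus (AAV) vectors need to transduce cells, and they were followed through pig retina. They were chosen by name, as known host factors of AAV, with earlier results of these data known. Most of them act on the way from the cell surface to the trans-Golgi network, and they are 5 of the 35683 genes counted. Their level in each retinal cell class of vehicle eyes was set beside the level of the vector transcript EGFP in the same class of AAV eyes, and their levels were then compared between AAV and vehicle eyes. All 8 retinas came from 6 female Yucatan minipigs a few months old. In every animal both eyes had first received intravitreal Vitrase, a hyaluronidase that loosens the vitreous, and methylprednisolone was given every week. The AAV week 2 group was the left and right retina of animal 7221, and the AAV week 4 group was the left retina of animals 7248 and 7249. These eyes had been injected with AAV2.7m8/CAG-GFP at 5e11 vector genomes per eye, a capsid derived from AAV2 that carries a green fluorescent protein gene under the ubiquitous CAG promoter. The Vehicle week 2 group was both retinas of animal 7222, the Vehicle week 4 group was the left retina of animals 7250 and 7251, and these eyes had received vehicle alone. Each of the 4 groups is also its own batch in the labels, so that batch and treatment cannot be told apart. Animals of week 4 came from 2 cohorts killed on different days, and the labels do not give the cohort. At week 2 each arm is 1 animal, and no test was made there.

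An AAV particle first attaches to glycans such as heparan sulfate, is taken up into endosomes and is carried back to the trans-Golgi network before it reaches the nucleus. KIAA0319L encodes AAVR, the receptor that binds most AAV serotypes and cycles between the cell surface and the Golgi. GPR108 is a multi-pass Golgi protein on which entry of most serotypes depends, and TM9SF2 is a transmembrane protein of endosomes and Golgi that also bears on heparan sulfate. ATP2C1 is SPCA1, the pump that loads the Golgi lumen with calcium and manganese. RNF121 is a ubiquitin ligase of the endoplasmic reticulum and Golgi that came out of genetic screens for AAV transduction and is tied to transcription of the vector genome rather than to uptake. In the retina, retinal ganglion cells (RGCs) and the end feet of Müller glia face the vitreous, into which the vector was injected, whereas photoreceptors lie on the far side.

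The genes lie on different chromosomes of Sscrofa11.1 in the RefSeq annotation. KIAA0319L is on chromosome 6 at 91630664 to 91747790 on the minus strand, and ATP2C1 is on chromosome 13 at 1461562 to 1580035 on the minus strand. GPR108 is on chromosome 2 at 72418219 to 72427624, TM9SF2 on chromosome 11 at 68407834 to 68469956 and RNF121 on chromosome 9 at 6488756 to 6587426, all on the plus strand. GPR108 is short, at 9.406 kb, and the others span 62.12 to 118.5 kb. The 250 bases upstream of ATP2C1 and KIAA0319L are shown because these are the members called higher in Müller nuclei of AAV retinas at week 4. They are RefSeq sequence on the gene's own strand, 5′ to 3′, and capitals mark each CpG.
ATP2C1, chr13:1580036-1580285: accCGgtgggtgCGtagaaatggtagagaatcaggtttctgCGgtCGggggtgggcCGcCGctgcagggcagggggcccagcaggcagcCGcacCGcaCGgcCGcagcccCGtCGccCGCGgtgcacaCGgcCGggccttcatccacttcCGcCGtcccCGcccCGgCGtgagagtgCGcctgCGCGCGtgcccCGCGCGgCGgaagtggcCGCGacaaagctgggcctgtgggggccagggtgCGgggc
KIAA0319L, chr6:91747791-91748040: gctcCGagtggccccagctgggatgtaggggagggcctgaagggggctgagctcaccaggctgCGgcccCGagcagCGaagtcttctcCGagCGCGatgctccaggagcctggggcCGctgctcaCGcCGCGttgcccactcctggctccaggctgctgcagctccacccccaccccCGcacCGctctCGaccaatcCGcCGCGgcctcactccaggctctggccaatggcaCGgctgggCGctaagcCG
The ATP2C1 window holds 32 CpG and is 75.6% G or C, and the KIAA0319L window holds 20 CpG and is 71.6% G or C, against a median of 57.6% over all genes. Both strands were searched for 6 motifs, namely the Golgi stress element ACGTGGC (2.99% of 19556 windows of this length), the E-box CACGTG, which overlaps it by 5 letters (6.39%), the cAMP element TGACGTCA (1.7%), the AP-1 site TGANTCA (5.27%), the STAT site TTCNNNGAA (6.12%) and the interferon element, GAAA and a further GAAA with 2 bases between (3.01%). These letters were in neither window.

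Nuclei were sorted on DAPI and counted in droplets as unique molecular identifiers (UMIs), each standing for 1 captured RNA molecule. The retinas gave 121544835 to 173614051 UMIs. Of 350537 nuclei kept, 264234 (75.4%) fell into 10 classes by marker gates, and each class held its own markers with none at 0 among those in the files. The gates used these same markers, so that this is no independent check of the classes. Classes are called rods, cones, bipolar, amacrine and horizontal cells, RGCs, Müller glia, astrocytes, myeloid cells and lymphocytes, each meaning nuclei that carry the markers. Any 2 retinas shared 486 to 774 cell barcodes, at most 1.56% of the smaller retina. UMIs of a gene were summed per class and retina and given per 1000000 UMIs of that class (CPM). The number of animals was 3 with vehicle and 3 with AAV.

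Lymphocytes held at most 5 nuclei in any vehicle retina and were left out of the comparisons, which leaves 9 classes. In vehicle retinas all 5 genes were read in each of these 9 classes, and their levels differed between them by less than 4-fold. The 10 rod markers in the files, too, were read in Müller nuclei of these retinas, at 407 to 623 CPM in sum, and the part that such free RNA has in the members' levels was not tested. The receptor KIAA0319L was the most even, with class means from 129 ± 4.9 CPM (SD, n = 3 animals) in RGCs to 177 ± 51 CPM in myeloid nuclei, a 1.36-fold span. Every neighbouring pair of classes in its order overlapped in range. In rods the 4 vehicle retinas gave 177, 173, 166 and 171 CPM, and in RGCs 139, 130.0, 127 and 127 CPM, so that these classes did not overlap. Müller glia lay between them, at 154, 166, 139.9 and 149 CPM.

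GPR108 was the lowest in CPM, with means from 6.49 ± 0.75 CPM in astrocytes to 16.8 ± 2.2 CPM in cones. Its mean of 21.9 ± 24.8 CPM in myeloid nuclei rested on 9 UMIs, with none in animal 7222 (3 UMIs would be 7.65 CPM there). Cones gave 15.6, 13.7, 16.7 and 19.1 CPM in the 4 retinas, and RGCs 7.78, 6.83, 9.89 and 5.33 CPM. All 8 neighbours in its order overlapped.

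TM9SF2 ran from 65.4 ± 1.5 CPM in bipolar cells to 173 ± 28 CPM in myeloid nuclei, a 2.65-fold span in which 3 of 8 neighbours overlapped. Such counts were taken for the members only. The spread between animals differed by gene, with a median coefficient of variation of 4.24% for TM9SF2, 5.99% for KIAA0319L and 16.7% for GPR108. Bipolar nuclei read 63.0, 64.4, 66.3 and 66.4 CPM in the 4 vehicle retinas, below the range of every other class. Cones read 117, 119.8, 113.1 and 119 CPM. Myeloid nuclei read 207, 136, 203 and 146 CPM from 112 UMIs in all, so that this class alone stood above cones.

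ATP2C1 was the highest in CPM, and 5 of 8 neighbours in its order overlapped. Horizontal cells were at the top, at 542 ± 38 CPM, followed by cones at 424 ± 7.5 and myeloid nuclei at 422 ± 52, whose ranges overlapped. Rods were at 393 ± 2.2 CPM, RGCs at 348 ± 11 and amacrine cells at 342 ± 7.9. Bipolar cells, at 257 ± 8.5 CPM, did not overlap astrocytes, which were lowest at 209.9 ± 22 CPM, and the span was 2.58-fold. Müller glia varied most among the neural and glial classes, at 311, 288, 221 and 359 CPM in the 4 retinas.

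RNF121 was highest in photoreceptors. Cones read 86.1, 84.3, 79.4 and 76.3 CPM and rods 77.8, 73.2, 74.4 and 72.4 CPM, while amacrine cells, the lowest class, read 43.6, 42.3, 43.7 and 48.4 CPM. Between the myeloid mean of 63.3 ± 12.5 CPM and the amacrine mean of 45.0 ± 3.0 CPM all neighbours overlapped.

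**Figure D1:**
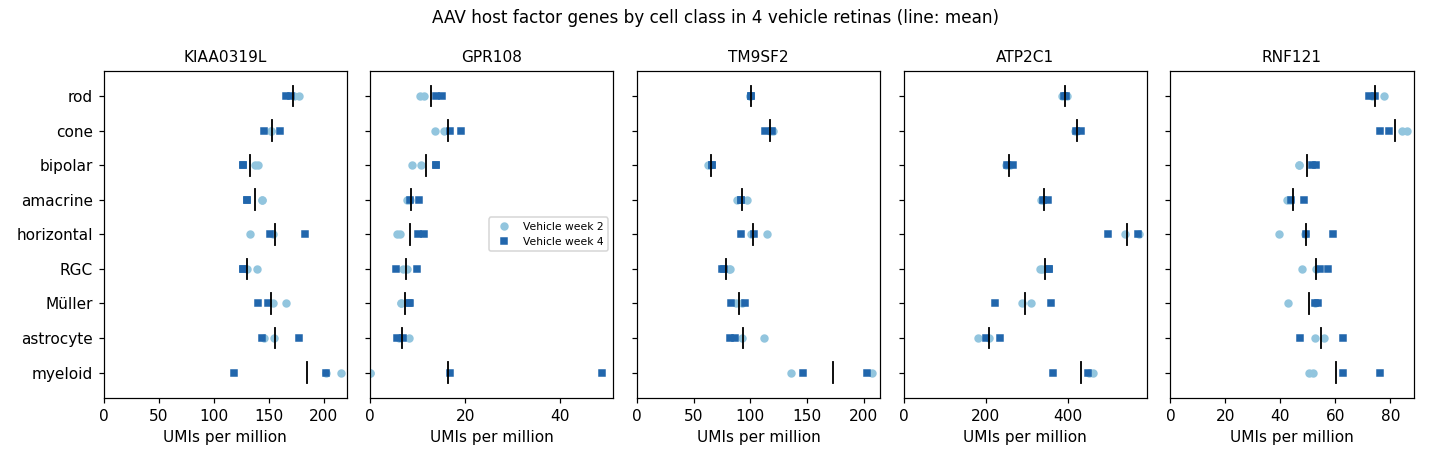
Level of each gene in CPM (horizontal axis) by cell class in the 4 vehicle retinas, with a line at the mean. Points lie close together in rods and cones, ATP2C1 stands highest in horizontal cells, TM9SF2 lowest in bipolar cells, and the myeloid points, which rest on few UMIs, spread widely.

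Each class was tested against the mean of the other 8 with edgeR's quasi-likelihood test, animal as a block, on 20806 genes with Benjamini-Hochberg adjustment. Of the 45 pairs of a member and a class, 15 were called higher and 9 lower, against 29% and 21% of all gene and class pairs. With total counts as the only scaling the split was 11 higher and 13 lower. Of these 24 calls, 11 were kept under all 12 alternative settings. In photoreceptors these were GPR108 in cones (log2 difference +0.94, SE 0.11, edgeR adjusted p = 2.3e-08), RNF121 in cones (+0.71) and rods (+0.55), ATP2C1 in cones (+0.47) and TM9SF2 in cones (+0.44). The other kept calls were ATP2C1 in horizontal cells (+0.91, SE 0.08, edgeR adjusted p = 3.5e-11), astrocytes (−0.93) and bipolar cells (−0.43), TM9SF2 in bipolar cells (−0.60) and RGCs (−0.32), and RNF121 in amacrine cells (−0.36). The size of kept calls moved over the 12 settings. RNF121 in rods ran from +0.26 to +0.62, ATP2C1 in cones from +0.25 to +0.53 and TM9SF2 in cones from +0.21 to +0.48. Scaling mattered here, since the median of all genes in rods was +0.18 on the log2 scale under the main scaling and −0.10 under RLE scaling. The call of TM9SF2 in rods turned from +0.16 to −0.13 under RLE, and KIAA0319L in cones turned from +0.17 to −0.06. TM9SF2 in myeloid nuclei was not called under the main scaling, where the median of all genes in that class was −0.64.

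Levels between genes were compared per kilobase of gene span, over the median class of the vehicle retinas. How far UMIs depend on gene length was not tested in these data. ATP2C1 stayed first at 2.91 CPM per kb, then TM9SF2 at 1.5, KIAA0319L at 1.30, GPR108 at 0.919 and RNF121 at 0.538. GPR108, lowest in CPM, thus passed RNF121 on this scale. Per kilobase of exon the order was different, at ATP2C1 (94.4), KIAA0319L (33.1), TM9SF2 (28.2), RNF121 (24.7) and GPR108 (2.18).

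For each member the genes with the most similar class pattern were taken from 13236 genes, by Pearson's r of mean log2 CPM over the 9 classes. They were UBE4A, WIPI2 and PSME3IP1 for KIAA0319L (all 0.94) and OTUD5 (0.98), TSN (0.98) and DBNDD2 (0.97) for GPR108. For TM9SF2 they were BLMH (0.94), CEP250 (0.93) and EIF3A (0.92). OSER1 (0.95), JMJD1C (0.95) and GTF2H3 (0.94) were nearest to ATP2C1. NUDT6 (0.98), GBF1 (0.97) and PRKAA1 (0.96) were nearest to RNF121. The 9 classes share the same retinas, and the values are descriptions.

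EGFP was read in each of the 9 classes in every AAV retina and in 1 UMI of the gated vehicle nuclei, a rod of animal 7222. RGCs carried the most, at 230.1 and 87.3 CPM in the right and left retina of animal 7221 and 119 and 122 CPM in animals 7248 and 7249, and they were first in each of the 4 retinas. Bipolar cells followed in 3 retinas, at 98.2, 51.4, 44.8 and 49.8 CPM over the 4. Astrocytes ranged from 9.90 to 148 CPM. Rods read 41.6, 20.3, 23.9 and 19.6 CPM, and cones 25.6, 16.7, 15.3 and 14.1 CPM. The share of nuclei with an EGFP UMI ran from 43.9 to 80.9% in RGCs and from 4.22 to 6.91% in rods, but the median nucleus held 20483 to 24599 UMIs in RGCs and 1677 to 2205 in rods, so that these shares were not read as an order of transduction. Lymphocytes of the 2 AAV week 4 retinas read 24.6 and 16.5 CPM of EGFP, and 3.84 and 2.86% of them held an EGFP UMI (median depth 1342.5 and 1374 UMIs). In CPM cones of the same retinas (15.3 and 14.1 CPM) lay below the lymphocytes in both, and rods (23.9 and 19.6 CPM) lay below them in 1 retina and above in the other. These classes differ in depth, so that CPM alone cannot tell EGFP at these levels apart from free RNA. In cones 4.88 to 9.76% of nuclei held an EGFP UMI over the 4 AAV retinas, and the part of free RNA was not tested.

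RGCs and bipolar cells, the classes with the highest mean EGFP level, did not have the most transcript of any of these genes. Here members were averaged over the 4 vehicle retinas, so that means differ slightly from those over 3 animals. RGCs, first for EGFP, had the lowest mean of KIAA0319L (131 CPM), the second lowest of TM9SF2 (78.7 CPM) and the third lowest of GPR108 (7.46 CPM), and they held the middle place for ATP2C1 (344 CPM) and RNF121 (53.1 CPM). Bipolar cells, mostly next for EGFP, had the lowest TM9SF2 (65.0 CPM), the second lowest ATP2C1 and KIAA0319L and the third lowest RNF121, but the fourth highest GPR108 (11.8 CPM). Cones had the highest RNF121 (81.5 CPM), the second highest TM9SF2 and GPR108 and the third highest ATP2C1, and they held the middle place for KIAA0319L (152 CPM). The mean EGFP level of amacrine cells, rods, horizontal cells, Müller glia, cones and myeloid nuclei ran only from 27.5 down to 17.4 CPM. This was near the lymphocyte values above, but the classes differ in depth (median 6625 UMIs in amacrine cells, 1355 in lymphocytes). The share of nuclei with an EGFP UMI was 10.8 to 26.5% in amacrine and 13.4 to 25.3% in horizontal cells. In Müller glia it was 6.45 to 12.5% and in myeloid nuclei 3.38 to 7.79%. The part of free RNA in the order among these 6 classes was not tested. That order enters the rank correlations, which are given as a description only. Spearman's rank correlation between mean EGFP and mean member level over the 9 classes was −0.68 for KIAA0319L, −0.52 for GPR108, −0.80 for TM9SF2, −0.60 for ATP2C1 and −0.38 for RNF121. Over the 6 neuron classes it was −0.77, −0.60, −0.94, −0.77 and −0.31 in the same order. Without the right retina of animal 7221, which read 148 CPM of EGFP in astrocytes, the astrocyte mean fell from 56.0 ± 62.6 to 25.4 CPM, still in the third place, and the rank correlation over the 9 classes was −0.55, −0.55, −0.70, −0.43 and −0.35. These are descriptions over few classes that share libraries and differ in depth and in distance from the vitreous, and the latter's part was not tested.

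**Figure D2:**
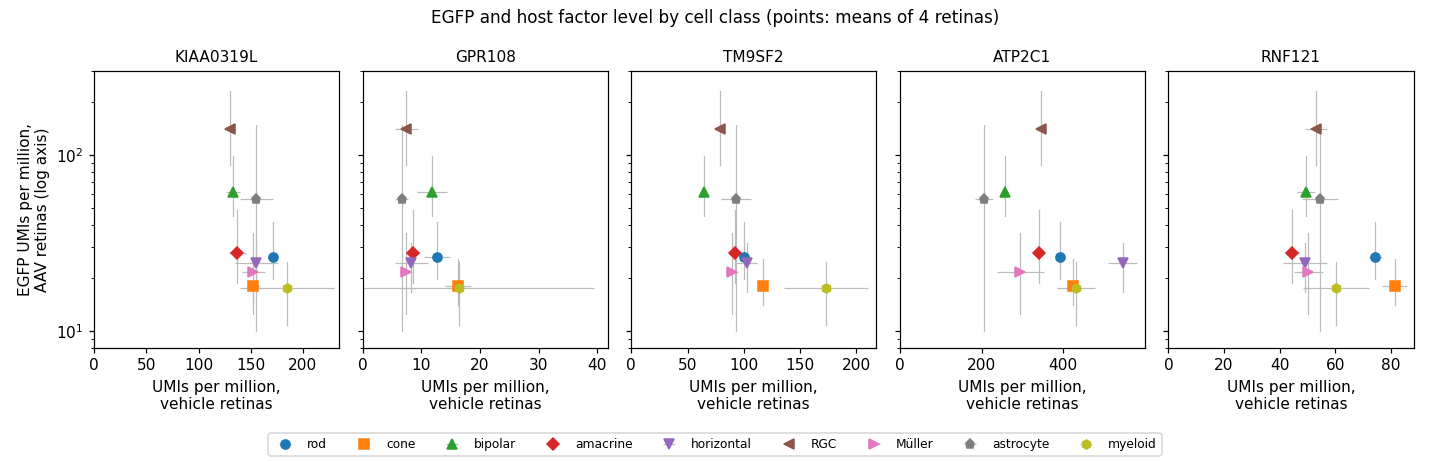
Mean EGFP level of each class in the 4 AAV retinas (vertical log axis, CPM, line from lowest to highest retina) against the mean level of each gene in the 4 vehicle retinas (horizontal axis, bar of 1 SD). RGCs are at the top of every panel, and for TM9SF2 the points run from upper left (RGCs, bipolar cells) to lower right (cones, myeloid nuclei, whose EGFP lay near the lymphocyte level).

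Within a class, nuclei with an EGFP UMI were set against those without, summed per animal, with animal as a block and EGFP left out. A nucleus can also catch 1 EGFP UMI from free RNA. CPM alone cannot tell this apart from expression in rods, cones, amacrine cells and Müller glia. In the AAV week 4 retinas amacrine cells read 18.7 and 23.1 CPM of EGFP and Müller glia 14.8 and 12.4 CPM. Lymphocytes of the same retinas read 24.6 and 16.5 CPM. The part of free RNA in the result was not tested. The 6 classes with enough nuclei gave 30 pairs. ATP2C1 in cones was the 1 pair called, and it was lower, where 2.29% of all pairs were called higher and 1.67% lower (3.49% lower in cones). EGFP-positive cones read 387, 421 and 384 CPM of ATP2C1 in animals 7221, 7248 and 7249, and EGFP-negative cones read 405, 439.7 and 421 CPM, lower in all 3 animals (log2 difference −0.15, SE 0.05, edgeR adjusted p = 0.0457). The call was lost in 8 of 9 alternatives, including EGFP-negative nuclei matched for depth (−0.12) and leaving out any of the 3 animals (−0.16 to −0.13). The difference stayed negative in all 9, at −0.37 to −0.08. EGFP-positive nuclei had the higher median UMI count in all 4 AAV retinas in each of these classes but Müller glia (3 of 4).

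For the receptor KIAA0319L, EGFP-positive bipolar nuclei read 137, 146 and 147 CPM and EGFP-negative ones 128, 129 and 144 CPM, a log2 difference of +0.10 with an SE of 0.05 (edgeR adjusted p = 0.37). EGFP-positive RGCs read 140.2, 119 and 132 CPM and EGFP-negative RGCs 126, 124 and 124 CPM, with the difference in opposite directions in different animals (+0.06, SE 0.10). The other values of the 4 genes besides GPR108 lay between −0.17 and +0.12, and those of GPR108 between −0.17 and +0.19 with larger errors. The number of pairs at an unadjusted p under 0.05 was 2, both in cones, with no share over all pairs to set beside it.

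**Figure D3:**
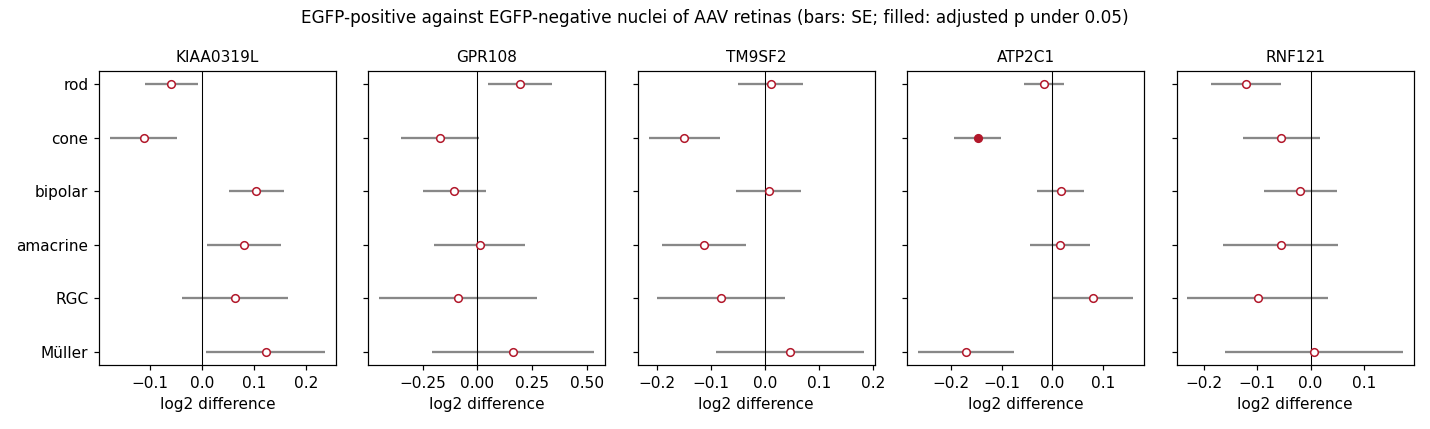
Log2 difference of each gene between EGFP-positive and EGFP-negative nuclei of 6 classes (horizontal axis, bars of 1 SE, 3 AAV animals). Points lie within 0.2 of 0, and ATP2C1 in cones is the filled point with an adjusted p under 0.05.

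At week 4, 2 AAV retinas were compared with 2 vehicle retinas in each of 9 classes. Of the 45 pairs, 2 were called higher and 1 lower, against 4.4% and 3.73% of all gene and class pairs. An unadjusted p under 0.05 was found for 10 pairs, with no share over all pairs to set beside that count. The calls were ATP2C1 higher in Müller glia and lower in myeloid nuclei, and KIAA0319L higher in Müller glia. Their number was near the shares over all pairs. Of the 3 calls, 0 were kept under all 14 alternative settings. GPR108, TM9SF2 and RNF121 were called in no class, and the median over the 5 members lay between −0.17 and +0.36 by class. An exact permutation test of 2 retinas against 2 cannot give a p below 0.333, so these calls rest on the spread that edgeR shares between genes.

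ATP2C1 in Müller glia read 646 and 588 CPM in the AAV retinas and 221 and 359 CPM in the vehicle retinas, and the groups did not overlap. The log2 difference was +1.08 (SE 0.22, edgeR adjusted p = 0.0123), in a class where 22% of all genes were called. It stood apart from the other classes, with a log2 difference 0.92 above the mean of the other 8 (SE 0.16, edgeR adjusted p = 0.00054, 2.95% of all pairs called). That call was lost in 1 of 8 alternatives, and its value ran from 0.63 to 1.32 on leaving out 1 retina. Müller nuclei of AAV retinas were fewer, at 1259 and 512 against 2630 and 2620, and deeper, with medians of 5732 and 5754 UMIs against 2484 and 2295. The 10 rod markers in the files summed to 237 and 236 CPM in them against 623 and 579 CPM, and the 5 Müller markers in the files to 1992 and 1935 against 3060 and 3164 CPM. Among Müller nuclei of 2000 to 6000 UMIs only, the log2 difference of ATP2C1 was +1.04 (edgeR adjusted p = 0.0108). The part of the marker changes was not tested. Leaving out animal 7248 gave +1.02 with an edgeR adjusted p of 0.0648, leaving out animal 7251 gave +1.48 and leaving out animal 7250 gave +0.75.

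KIAA0319L in Müller glia read 201 and 216 CPM with AAV and 139.9 and 149 CPM with vehicle, again without overlap. The log2 difference was +0.52 (SE 0.12, edgeR adjusted p = 0.0208). Among Müller nuclei of 2000 to 6000 UMIs it was +0.46 and no longer passed (edgeR adjusted p = 0.053). The call was lost on leaving out any of the 4 retinas, with values of +0.45 to +0.59 and edgeR adjusted p from 0.0521 to 0.0956. In astrocytes KIAA0319L read 209 and 209 CPM with AAV and 178 and 144 CPM with vehicle, which did not pass the test (+0.45, SE 0.17, edgeR adjusted p = 0.115).

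ATP2C1 in myeloid nuclei read 196 and 204 CPM with AAV against 448 and 363 CPM with vehicle, a log2 difference of −0.87 (SE 0.20, edgeR adjusted p = 0.0214), in a class where 9.36% of all genes were called. The vehicle values rested on 53 and 52 UMIs, from 71 and 77 nuclei, whereas the AAV retinas held 1205 and 828 myeloid nuclei. The difference was 0.74 below the mean of the other classes (SE 0.21, edgeR adjusted p = 0.0227), a call lost on leaving out either AAV retina or the vehicle retina of animal 7250 (−0.49, edgeR adjusted p = 0.297). The share of myeloid nuclei with a UMI of P2RY12, a marker of resident microglia, was 57.7 and 70.9% with AAV and 91.5 and 93.5% with vehicle. Among nuclei with that UMI alone, ATP2C1 read 189.6 and 202 CPM against 462 and 365 CPM (−0.97, edgeR adjusted p = 0.00827). The 10 rod markers summed to 987 and 1280 CPM in myeloid nuclei with AAV and 1783 and 1520 CPM with vehicle, and the 5 Müller markers to 338 and 303 CPM against 270.5 and 677 CPM, and their part was not tested. Leaving out either vehicle retina lost the call, with edgeR adjusted p of 0.163 without animal 7250 and 0.0717 without animal 7251.

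KIAA0319L in myeloid nuclei read 209 and 219 CPM with AAV and 118 and 202 CPM with vehicle, the lower vehicle value from 14 UMIs, and was not called (+0.54, SE 0.26, edgeR adjusted p = 0.243).

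Among the pairs that were not called, ATP2C1 in RGCs read 438 and 402 CPM with AAV and 354 and 354 CPM with vehicle (+0.30, SE 0.11, edgeR adjusted p = 0.172). In amacrine cells it read 418 and 412 CPM against 351 and 339.5 CPM (+0.26, SE 0.08, edgeR adjusted p = 0.137). RNF121 in cones read 100.1 and 88.8 CPM against 79.4 and 76.3 CPM (+0.34, SE 0.10, edgeR adjusted p = 0.134), and in rods 84.8 and 82.5 CPM against 74.4 and 72.4 CPM (+0.28, SE 0.10, edgeR adjusted p = 0.118). TM9SF2 differences lay between +0.08 and +0.36, and those of GPR108 between −1.24 in horizontal cells, where it was read in 5 to 16 UMIs, and +0.65 in astrocytes.

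**Figure D4:**
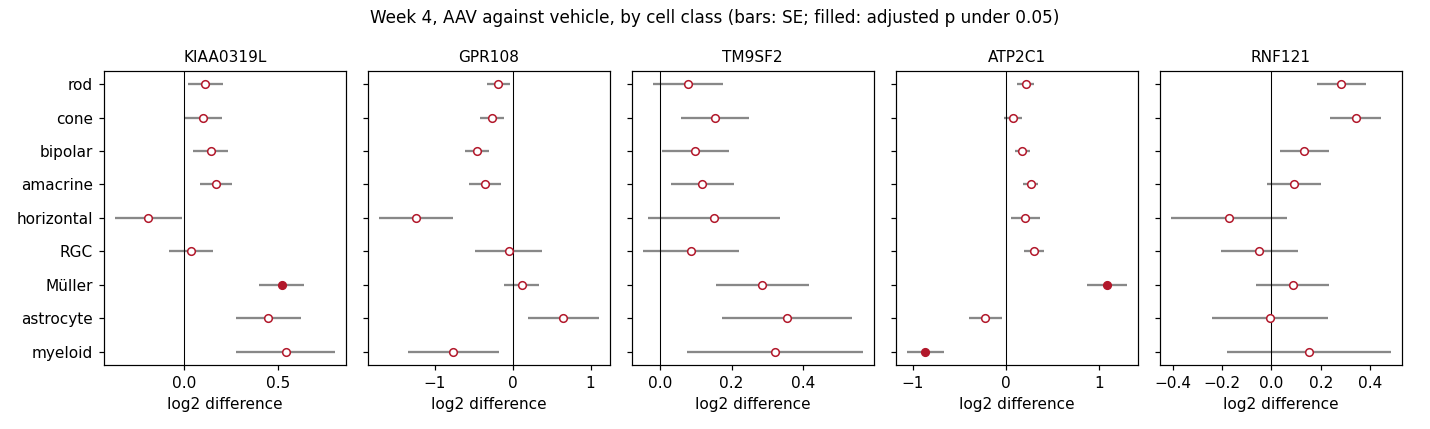
Log2 difference between AAV and vehicle retinas at week 4 for each gene and class (horizontal axis, bars of 1 SE, 2 retinas per group). ATP2C1 in Müller glia at +1.08 and in myeloid nuclei at −0.87 and KIAA0319L in Müller glia at +0.52 are the filled points, with an adjusted p under 0.05.

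With both weeks in 1 fit over the 6 animals and week as a term, ATP2C1 in myeloid nuclei was called (−0.90, edgeR adjusted p = 0.0216), and ATP2C1 (+0.82, edgeR adjusted p = 0.105) and KIAA0319L (+0.29, edgeR adjusted p = 0.36) in Müller glia were not. At week 2 the right and left AAV retinas read 261 and 245 CPM of ATP2C1 in myeloid nuclei and the vehicle retinas 461 and 452 CPM, a log2 ratio of −0.86 (95% counting interval −1.18 to −0.54). In Müller glia they read 385 and 391 CPM against 311 and 288 CPM, a log2 ratio of +0.38 (0.33 to 0.42). KIAA0319L in Müller glia read 157 and 145 CPM against 154 and 166 CPM, with overlap (−0.07). The intervals cover counting error only, for 1 animal per arm.

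RNF121 was the member with most classes in which the week 2 interval lay above 0, at 7 of 9. In bipolar cells the AAV retinas read 57.1 and 58.7 CPM and the vehicle retinas 46.6 and 46.8 CPM (log2 ratio +0.31, 0.23 to 0.38). Müller glia read 62.0 and 63.6 CPM against 42.8 and 52.7 CPM (+0.37, 0.25 to 0.49). Over all members 15 of 45 intervals lay above 0 and 8 below, against 22.1% and 12.9% of all gene and class pairs. Both AAV retinas lay on the same side of both vehicle retinas, in the same direction at both weeks, in 9 pairs higher and 2 lower, against 8.65% and 5.76% of all pairs. The higher pairs were RNF121 in rods, cones, bipolar and amacrine cells, ATP2C1 in amacrine cells, RGCs and Müller glia, and TM9SF2 in bipolar cells and Müller glia. The lower pairs were ATP2C1 in myeloid nuclei and GPR108 in amacrine cells. In 7 pairs the side was opposite at the 2 weeks, against 15.7% of all pairs.

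**Figure D5:**
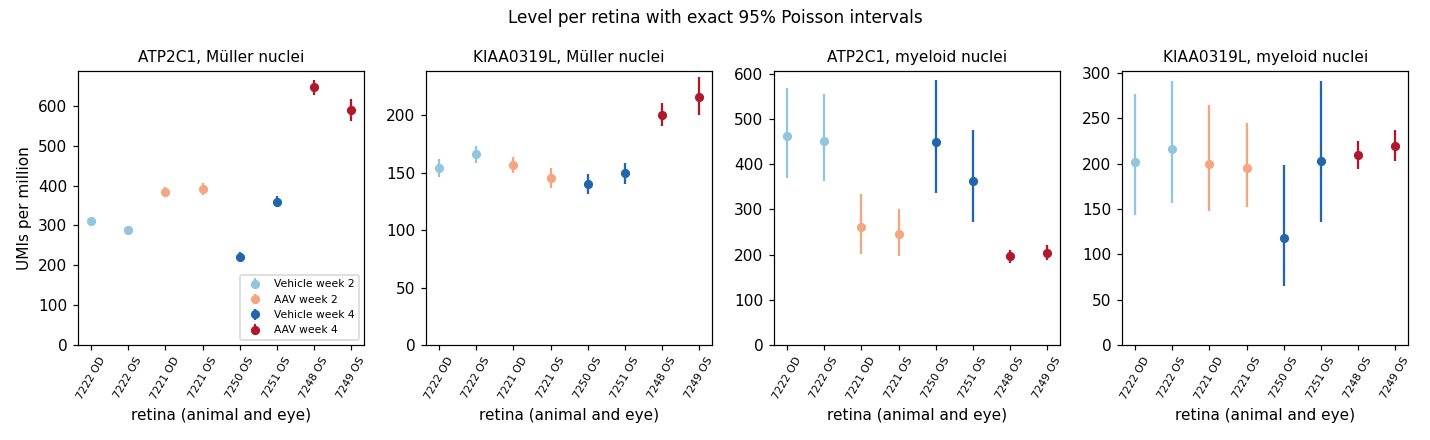
Level of ATP2C1 and KIAA0319L in Müller and myeloid nuclei of each of the 8 retinas (vertical axis, CPM, bars of exact 95% Poisson intervals, counting error only). ATP2C1 in Müller glia is at 646 and 588 in the AAV week 4 retinas, above the other 6, and in myeloid nuclei all 4 AAV retinas are below all 4 vehicle retinas.

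The wider set of genes known to act in AAV entry or in the fate of its genome held 75 genes in 5 lists beside the members, of which 72 were in the files. At week 4, when 4.4% of all gene and class pairs were called higher and 3.73% lower, the heparan sulfate synthesis genes gave 2 pairs higher and 2 lower of 135, and the heparan sulfate core proteins 9 higher and 9 lower of 66. Co-receptors described for AAV2 gave 5 higher and 3 lower of 56, and endosome to Golgi traffic genes 4 higher and 2 lower of 241. The list on silencing or restriction of AAV genomes gave 21 higher and none lower of 87, with class medians of +0.15 to +0.65, where the class medians of all genes lay between −0.01 and +0.09. All lists were chosen with earlier results of these data known, so these counts are descriptions and no test of a list.

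The calls of that last list were RAD50 in 8 classes, MORC3 in 7 and NBN in 5, with 1 more in SETDB1. RAD50 and NBN belong to the complex that senses DNA double-strand breaks, whose other subunit MRE11 was called in 0 of the 8 classes tested, and MORC3 is a nuclear protein that restrains viral genomes. RAD50 in Müller glia read 760 and 838 CPM with AAV and 248 and 266 CPM with vehicle at week 4 (+1.63, SE 0.12, edgeR adjusted p = 0.00019), and 1079 and 1803 CPM against 266 and 276 CPM at week 2. MORC3 there read 102 and 128 CPM against 30.0 and 32.3 CPM (+1.86, SE 0.16, edgeR adjusted p = 0.00038). NBN rose in Müller glia (+1.07), astrocytes (+1.12), horizontal cells (+1.42), RGCs (+0.57) and myeloid nuclei (+0.93).

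Of the attachment genes, AGRN, the heparan sulfate core protein agrin, rose in 5 classes, most in Müller glia, from 5.6 and 6.06 CPM to 28.5 and 28.5 CPM (+2.28, SE 0.19, edgeR adjusted p = 0.00033). GPC5, a glypican, fell in 5 classes and rose in RGCs (+0.56). In myeloid nuclei it read 119 and 53.7 CPM with AAV and 2899 and 2964 CPM with vehicle at week 4 (−4.93), but 2402 and 3368 CPM against 1616 and 2074 CPM at week 2. Rods, too, were higher with AAV at week 2, at 74.8 and 91.7 CPM against 67.6 and 70.1 CPM. So were bipolar cells, at 91.1 and 83.5 CPM against 65.3 and 69.0 CPM. Müller glia (32.1 and 48.2 against 50.3 and 53.8 CPM) and astrocytes (109 and 90.4 against 135 and 170 CPM) were lower then. GPC6 fell in rods (−1.12), Müller glia (−1.04) and cones (−0.66). At week 2 rods (109 and 188 against 134 and 132 CPM) and Müller glia (49.8 and 57.3 against 39.8 and 52.0 CPM) overlapped. Cones were lower with AAV then, at 143 and 211 CPM against 248 and 239 CPM. At week 4 GPC6 was far lower in these classes (23.4 to 179 CPM) than in bipolar cells. Those read 2420 and 2532 CPM with AAV and 2654 and 2546 CPM with vehicle, and the part of free RNA was not tested. XYLT1, which starts the heparan sulfate chain, was lower in Müller glia (−1.08), at 16.4 and 10.7 CPM against 26.9 and 32.1 CPM. At week 2 its Müller values overlapped, at 34.9 and 32.4 CPM with AAV against 30.6 and 35.2 CPM. At week 4 cones held 1126 to 1334 CPM of XYLT1 and rods 528 to 811 CPM. The rod markers in Müller nuclei were lower alongside (237 and 236 against 623 and 579 CPM), and their part was not tested. EXT1, which extends the chain, fell in myeloid nuclei (−0.91), and B3GAT3 was called in no class. Among co-receptors FGFR1 rose in Müller glia (+0.61) and fell in horizontal cells (−1.03) and myeloid nuclei (−3.81). At week 2 horizontal cells read 135 and 161 CPM with AAV against 86.9 and 106 CPM with vehicle. Vehicle Müller glia held 350 to 431 CPM of FGFR1 and vehicle myeloid nuclei 90.4 to 160 CPM. The part of free RNA was not tested. ITGB1 rose in astrocytes (+0.67) and myeloid nuclei (+1.31). At week 2 ITGB1 read 55.8 and 86.6 CPM with AAV against 75.6 and 66.3 CPM in astrocytes. In myeloid nuclei it read 143 and 125 CPM against 161 and 115 CPM. STX16, a SNARE of the trans-Golgi network, rose in rods (+0.58), astrocytes (+0.79) and myeloid nuclei (+1.42). At week 2 rods overlapped, at 57.7 and 66.2 CPM with AAV against 64.4 and 65.9 CPM. Astrocytes (64.1 and 63.8 against 63.2 and 51.8 CPM) and myeloid nuclei (196 and 139 against 82.9 and 85.4 CPM) were higher with AAV then. The week 4 vehicle myeloid values rested on 18 and 23 UMIs of FGFR1, 8 and 12 of ITGB1 and 6 and 12 of STX16. With the myeloid changes of these genes and of GPC5, EXT1, NBN, RAD50 and MORC3 the P2RY12-positive share also moved (57.7 and 70.9% with AAV, 91.5 and 93.5% with vehicle), and its part was not tested.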

How the data were processed

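Single nuclei were isolated from frozen retinas, sorted on DAPI and run on 10x GEM-X 3' v4 chips in 4 lanes per retina. The authors aligned reads with Cell Ranger 8.0.0 to Sscrofa11.1 with the EGFP sequence added and deposited raw UMI counts per gene and barcode; these were used with no further normalization. Every barcode in the files held at least 500 UMIs. Here barcodes with high mitochondrial counts were removed by a mixture fit after the study's miQC step (6.95 to 12.9% per retina, posterior above 0.75). A nucleus was placed in a class when it held at least 3 UMIs of that class's marker list, over 3 times the list's background rate, and its marker UMIs favoured that class over the next by a likelihood ratio of at least 100 (negative binomial model). This gate rule was set after the files were seen. No doublet caller was run, and 3701 nuclei (1.06%) that passed 2 lists were left out. Of gated nuclei 6.98% lay near the gate's limit (27.0% in amacrine cells and 25.2% in Müller glia). Classes with at least 20 nuclei in every sample compared were used, which removed lymphocytes.

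UMIs were summed per retina (or per animal) and class. edgeR 4.0.16 in R 4.3.3 fitted quasi-likelihood models with TMM scaling and filterByExpr, with Benjamini-Hochberg adjustment over all genes tested in a class and a threshold of 0.05. Comparisons were AAV against vehicle at week 4, each class against the mean of the others in vehicle animals, EGFP-positive against EGFP-negative nuclei, and the week 4 difference of a class against that of the other classes, the last added after the data were seen. The study integrated its samples by SCTransform in Seurat, and compared AAV with vehicle per cell type and time point. That integration was not used here. Animal was the block between classes and between EGFP states, since both arms come from the same animal by the labels. DESeq2 1.42.0, other scalings, filters and gates and leaving out animals were alternatives. Intervals of single levels are exact 95% Poisson intervals and cover counting error only. Sequences and positions came from RefSeq on Sscrofa11.1, and all 5 members matched by symbol.

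The members, lists and gates' markers were chosen with earlier results of these data known. Genes named beside the members were those of the entry lists called in most classes at week 4, up to 5 per direction, with FGFR1, ITGB1, EXT1 and B3GAT3 whatever their values, and the 3 genes most like each member. SETDB1 was named after its value was seen. Tested on simulated data, the week 4 Müller comparison recovered 50% of 2-fold and 89.6% of 4-fold changes among 15746 genes, and the week 4 myeloid comparison 14.3% and 58.9% among 10904 genes. Of the simulated calls, 4.26% of 141 in Müller glia and 9.59% of 73 in myeloid nuclei fell on unchanged genes. The myeloid share was thus above the threshold used for adjusted p, in the comparison that called ATP2C1 lower.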

Additional observations from a re-analysis of the deposited data

Results flagged for a closer look

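The week 4 difference of 3 pairs of a member and a class differed from the mean of the other classes by edgeR's quasi-likelihood test. These were ATP2C1 in Müller glia (0.92 above, adjusted p = 0.00054), ATP2C1 in myeloid nuclei (−0.74, adjusted p = 0.0227) and KIAA0319L in myeloid nuclei (+0.76, adjusted p = 0.013). That of ATP2C1 in myeloid nuclei was lost in 3 of 8 alternatives, each leaving out 1 retina (−0.49 to −0.89, adjusted p from 0.0644 to 0.297). That of KIAA0319L in myeloid nuclei was called in 2 of 8 alternatives, both leaving out 1 retina. It ran from +0.49 to +1.25 over the fits leaving out 1 retina, and with total counts as the only scaling it was +0.25 (edgeR adjusted p = 0.819). The call of ATP2C1 in Müller glia was lost in 1 of 8 alternatives, and its value ran from 0.63 to 1.32 above on leaving out 1 retina.

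In 7 of 45 pairs both AAV retinas lay on one side of both vehicle retinas at week 2 and on the other at week 4. This is near the 15.7% of all gene and class pairs, and the difference between the weeks was not tested. The week 2 counting interval of KIAA0319L in myeloid nuclei included 0 (−0.50 to +0.33). The log2 values at week 2 and week 4 were −0.10 and +0.14 for KIAA0319L in bipolar cells and −0.088 and +0.54 in myeloid nuclei. GPR108 read +0.18 and −0.18 in rods and +0.24 and −0.46 in bipolar cells. ATP2C1 read −0.052 and +0.21 in rods and −0.10 and +0.20 in horizontal cells, and RNF121 read +0.30 and −0.049 in RGCs.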

How the results depend on the processing

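In the week 4 comparison the counts of 2 pairs higher and 1 lower were the same under DESeq2, RLE scaling, total counts only, no low-count filter, the stricter gate, no mitochondrial filter, nuclei of at least 1000 UMIs and without the deepest 5% of nuclei. With all 6 animals and week as a term 0 were higher, and on leaving out each retina 0 to 1 were higher and 0 to 1 lower. In the class comparison of vehicle retinas, leaving out each animal gave 9 to 12 higher and 6 to 7 lower, and the fit with no replicate block gave 10 higher and 6 lower. The direction of 4 calls turned with the scaling. With total counts only these were KIAA0319L in Müller glia (−0.0070) and RNF121 in myeloid nuclei (+0.068). With RLE scaling they were TM9SF2 in rods (−0.13, edgeR adjusted p = 0.0424) and KIAA0319L in cones (−0.058), and with DESeq2 the same pairs read −0.13 (DESeq2 adjusted p = 0.0021) and −0.057. In the EGFP comparison 0 pairs were lower with depth-matched EGFP-negative nuclei, with at least 2 EGFP UMIs, with total counts only, with DESeq2, with no replicate block and on leaving out any animal (0 to 0), and 0 were higher in every setting. In the comparison of week 4 differences between classes, whose alternatives were chosen after seeing the data, 1 was higher with RLE scaling, total counts only or no low-count filter, 2 were lower with DESeq2, and leaving out each retina gave 0 to 2 higher and 0 to 1 lower. Leaving out the right retina of animal 7221 from the EGFP means, also added after seeing the data, moved Spearman's rank correlation with the members to −0.55 for KIAA0319L and GPR108, −0.70 for TM9SF2, −0.43 for ATP2C1 and −0.35 for RNF121. The alternatives by depth of Müller nuclei and by P2RY12 were also added after seeing the data. The causes of these changes were not tested, beyond fewer retinas in the leave-one-out fits, where a lone sample is assumed to vary like the others. No paired analysis of AAV against vehicle was possible because the groups hold different animals. Depth limits GPR108, read in under 50 UMIs per retina in horizontal, RGC and astrocyte nuclei, and all members in vehicle myeloid nuclei.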

Other observations

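Lymphocyte nuclei were nearly confined to the AAV week 4 retinas, with 1382 and 1117 nuclei against at most 16 in each other retina, and entered no comparison. They carried all 5 genes. In the 2 AAV week 4 retinas KIAA0319L read 193 and 221 CPM, TM9SF2 202 and 237 CPM, ATP2C1 254 and 233 CPM, RNF121 109.7 and 93.1 CPM and GPR108 14.4 and 15.05 CPM. EGFP read 24.6 and 16.5 CPM there, from 60 and 35 UMIs. Myeloid nuclei of the same retinas read 209 and 219 CPM of KIAA0319L, 209 and 181 CPM of TM9SF2 and 68.0 and 70.3 CPM of RNF121.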
